A study of Homo sapiens with 12 samples.

Results

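The genes described here are 10 immune checkpoint ligands and related surface molecules that tumour cells show to lymphocytes and macrophages, CD274, PDCD1LG2, NT5E, CD276, CD47, PVR, NECTIN2, LGALS9, TNFRSF14 and HLA-E. They were chosen by name, with earlier results of these data known, and all 10 were found among the 61587 genes of the table. RNA was measured in A2058, an established human melanoma line, in 4 groups of 3 libraries. The groups were untreated cells, cells given a negative control siRNA (siCNTL), and cells given siSOX10_1 or siSOX10_2, siRNAs against the melanocyte transcription factor SOX10. The siRNAs were delivered for 96 hours at 12.5 nM in the lipid reagent Lipofectamine RNAiMAX, so the untreated group lacked both the siRNA and the reagent. Every group had 1 library in each of 3 batches, as the labels call them, and the labels do not say whether these were separate cultures. All groups are of 1 line, which limits them as a model of melanoma. The study's title places SOX10 above IRF1, ITGA3, EPHA2 and FAK in metastasis, and the comparison addressed here is how the checkpoint ligands stood when SOX10 was lowered.

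Checkpoint ligands dampen immune cells by engaging inhibitory receptors on them. CD274 (PD-L1) and PDCD1LG2 (PD-L2) bind PD-1 on T cells, CD47 binds SIRPA on macrophages as a signal against phagocytosis, and HLA-E binds the inhibitory receptor NKG2A on NK cells. PVR and NECTIN2 are nectin family adhesion molecules read by the activating receptor CD226 and the inhibitory receptors TIGIT and, for NECTIN2, PVRIG. NT5E (CD73) is an ectoenzyme that makes adenosine from AMP, CD276 (B7-H3) is a B7 family protein, LGALS9 is a galectin linked to HAVCR2 (TIM-3), and TNFRSF14 (HVEM) binds BTLA and CD160. In melanoma, CD274 is known as a gene induced by interferon gamma, with IRF1 among the factors that act on it.

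The upstream sequences of 3 members are shown as parts of the windows searched for motifs. CD274 is shown with the letters it holds, and NECTIN2 and PVR, both on chromosome 19, as parts of windows with no match. The sequences are from RefSeq (GRCh38.p14, plus strand), start 250 bases before the RefSeq start site and end before the gene's first base in the deposited table. They lie at chr9:5450292-5450502 for CD274, chr19:44846047-44846174 for NECTIN2 and chr19:44643660-44643797 for PVR. Capitals mark the elements searched for.
CD274: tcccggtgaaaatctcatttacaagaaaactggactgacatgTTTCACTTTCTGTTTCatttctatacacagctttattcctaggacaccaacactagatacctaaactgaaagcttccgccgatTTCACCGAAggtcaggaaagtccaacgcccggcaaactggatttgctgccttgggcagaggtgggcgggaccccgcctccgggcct
NECTIN2: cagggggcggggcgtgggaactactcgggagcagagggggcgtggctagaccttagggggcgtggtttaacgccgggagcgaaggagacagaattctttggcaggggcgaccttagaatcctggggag
PVR: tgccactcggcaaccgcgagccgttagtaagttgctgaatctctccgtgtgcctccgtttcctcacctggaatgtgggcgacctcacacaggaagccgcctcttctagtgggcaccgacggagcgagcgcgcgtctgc

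Promoters were searched on both strands from 250 bases before to 50 after the start, and 8 of the 10 genes had a RefSeq entry. CD274 held the core of the interferon-stimulated response element, GAAA and GAAA with any 2 bases between, in 2 overlapping copies on the minus strand, at bases -208 to -199 and -202 to -193. It also held the STAT element TTCNNNGAA at -125 to -117, which reads the same on both strands. Of 35116 promoters of this length in the table, 3.57% held the first element and 7.66% the second. LGALS9 had 1 response element, at -9 to 1, and the SOX letters ACAAAG (16.1% of promoters) and ACAATG (10.8%). Neither the NF-kB letters, GGG and TTCC with any 3 bases between (6.52%), nor the AP-1 letters TGANTCA (7.71%) were found in any of the 8, and NT5E, NECTIN2, PVR, CD276, CD47 and TNFRSF14 held none of the 6 motifs in this window. A match of letters is a description and not a measured site.

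Values are TPM (transcript levels scaled by gene length and to the same total in each library), with mean ± SD of 3 libraries. TPM keep no read depth, so no counting interval can be given; 13648 to 15333 genes reached 1 TPM per library. The siRNA target, SOX10, was at 28.6 to 36.8 TPM with siCNTL and at 22.3 to 32.4 TPM in untreated cells, against 12.8, 12.8 and 3.32 TPM with siSOX10_1 and 11.8, 8.95 and 4.24 TPM with siSOX10_2 in batches 1, 2 and 3. The 7 melanocytic markers summed to 6946 to 11128 TPM in the control libraries and 389 to 2827 TPM with the SOX10 siRNAs. Of 12 leukocyte markers 5 stayed under 1 TPM in all 12 libraries, among them PTPRC (CD45), CD3E and CD8A. Others were higher with the SOX10 siRNAs. CD4 was at most 0.168 TPM in controls and at 0.603 to 1.72 TPM with them. NKG7 and CD3D were at most 0.276 and 0.266 TPM in controls and reached 2.62 and 1.82 TPM with siSOX10_2. ITGAX was at 1.87 to 4.69 TPM in controls and 3.72 to 9.55 TPM with the SOX10 siRNAs. CD14 and LYZ were highest in a control library, at 1.08 and 1.19 TPM. The summed leukocyte list, which was mostly CD68, was at 33.0 to 39.1 TPM in untreated, 44.1 to 54.5 TPM in siCNTL, 58.4 to 71.1 TPM in siSOX10_1 and 79.5 to 91.5 TPM in siSOX10_2 libraries, and its part in the results was not tested. The fibroblast list, mostly LUM, was at 153 to 228 TPM in control and 66.5 to 163 TPM in SOX10 siRNA libraries. Its members went in both directions, with COL1A1 at 0 to 0.0960 TPM in controls and 7.96 to 11.5 TPM with the SOX10 siRNAs, and FAP higher with siSOX10_1 (log2 fold change 1.43, limma adjusted p = 0.0358), and their part in the results was not tested. Of the 5 endothelial markers 4 were under 1 TPM in all libraries. PECAM1 was at most 0.0380 TPM in controls and at 0.121 to 2.19 TPM with the SOX10 siRNAs. In bulk RNA, more cells with a transcript and more transcript per cell cannot be told apart.

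**Figure D1:**
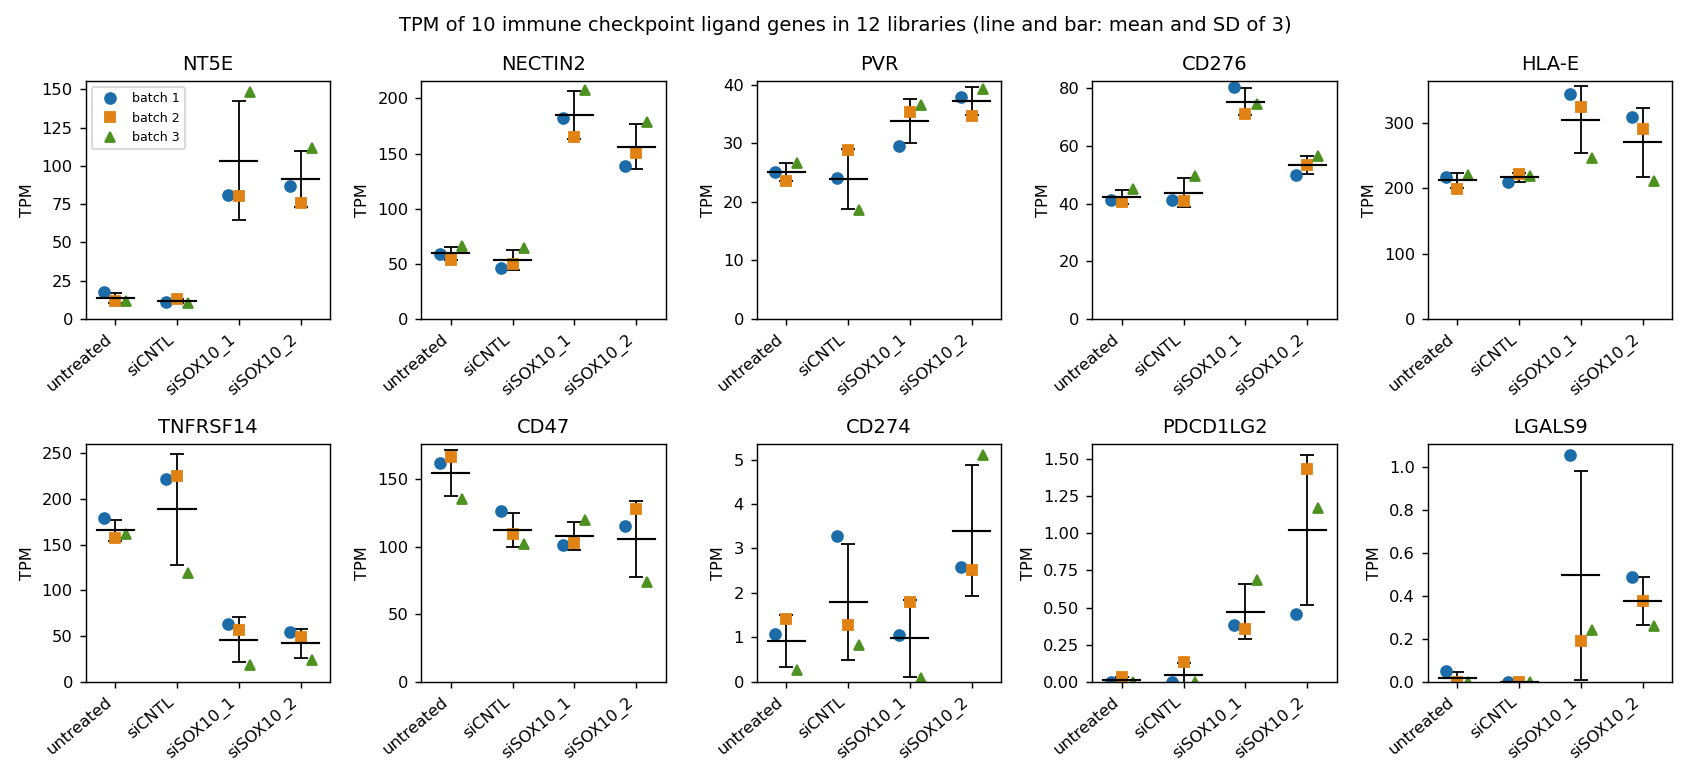
TPM (vertical axis, from 0, a scale of its own in each panel) of the 10 genes in each library, by group, with the marker giving the batch, the line the mean and the bar the SD of 3. NT5E and NECTIN2 sit far above the 6 control libraries with both SOX10 siRNAs and TNFRSF14 far below them, while CD274, PDCD1LG2 and LGALS9 stay at or under 5.11 TPM.

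In control cells the members fell into an abundant, a middle and a scarce set. With siCNTL, HLA-E (216.8 ± 6.69 TPM), TNFRSF14 (189 ± 60.3 TPM) and CD47 (113 ± 12.7 TPM) were highest, and HLA-E and TNFRSF14 overlapped, as did TNFRSF14 and CD47. NECTIN2 (53.5 ± 9.40 TPM) and CD276 (43.8 ± 4.95 TPM) came next and overlapped, followed by PVR (23.9 ± 5.15 TPM) and NT5E (11.5 ± 1.37 TPM), whose libraries did not overlap. CD274 was at 1.79 ± 1.31 TPM, PDCD1LG2 at 0.0453 ± 0.0785 TPM, and LGALS9 was listed at 0 in all 3 libraries. With siSOX10_1 the order by mean was HLA-E, NECTIN2, CD47, NT5E, CD276, TNFRSF14 and PVR, and it was the same with siSOX10_2, so by mean TNFRSF14 went from the second place to the sixth and NT5E from the seventh to the fourth. These orders are of levels per length, and CD47 overlapped NT5E and TNFRSF14 overlapped PVR in both SOX10 siRNA groups, as did CD276 and TNFRSF14 with siSOX10_2.

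Of the 10 genes, 8 had at least 1 TPM in at least 3 libraries and were tested, and PDCD1LG2 and LGALS9 were not. Tests were limma fits of log2(TPM + 1) over all 15738 genes that passed, with Benjamini-Hochberg adjusted p over all of them and a threshold of 0.05; log2 fold changes are on that scale, which understates changes of low genes, with their standard error. With siSOX10_1, 5 of the 8 rose (NT5E, NECTIN2, CD276, PVR and HLA-E) and TNFRSF14 fell, where 27.3% of all genes were called, 15.6% higher and 11.7% lower. With siSOX10_2, NT5E, NECTIN2 and PVR rose and TNFRSF14 fell, where 28.8% were called, 18.4% higher and 10.4% lower. Both comparisons share the siCNTL libraries. With median-of-ratios scaling the siSOX10_2 split of all calls moved from 2898 higher and 1641 lower to 2146 and 2231, with the median of all genes moving by -0.12 on the log2 scale. No member that was called with siSOX10_2 lost its call under that scaling, and with siSOX10_1 only PVR did.

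NT5E (chromosome 6, 85449584 to 85495791, GRCh38, plus strand) rose most. In untreated cells it was at 17.7, 11.8 and 11.7 TPM, in batches 1, 2 and 3, and with siCNTL at 11.2, 12.99 and 10.3 TPM. It stood at 81.1, 80.7 and 149 TPM with siSOX10_1 and at 87.2, 75.6 and 112 TPM with siSOX10_2. All 6 SOX10 siRNA libraries lay far above all 6 controls, and the batch 3 library was the highest with each siRNA. The means were 8.99-fold and 7.95-fold that of siCNTL. The log2 fold change was 3.01 ± 0.242 with the first siRNA (limma adjusted p = 2.54e-06) and 2.87 ± 0.242 with the second (limma adjusted p = 3.47e-06).

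NECTIN2 (chromosome 19, 44846175 to 44889223, plus strand) was the other ligand with a large rise. Its levels were 58.6, 53.6 and 66.0 TPM in untreated cells, at 46.7, 49.6 and 64.2 TPM with siCNTL, 182, 165 and 207.5 TPM with siSOX10_1 and 139, 151 and 179 TPM with siSOX10_2. The control and SOX10 siRNA libraries were well apart, and the siSOX10_1 and siSOX10_2 libraries overlapped. The log2 fold change was 1.78 ± 0.147 with siSOX10_1 (limma adjusted p = 3.20e-06) and 1.53 ± 0.147 with siSOX10_2 (limma adjusted p = 1.01e-05), or 3.45-fold and 2.92-fold by the means.

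PVR (chromosome 19, 44643798 to 44666162, plus strand), which shares the receptors CD226 and TIGIT with NECTIN2, moved by less. It was at 25.1, 23.5 and 26.6 TPM in untreated cells, at 24.03, 28.9 and 18.6 TPM with siCNTL, 29.6, 35.3 and 36.6 TPM with siSOX10_1 and 37.9, 34.7 and 39.2 TPM with siSOX10_2. No SOX10 siRNA library overlapped the controls, though the closest were within 1 TPM of each other. With siSOX10_2 PVR rose by a log2 fold change of 0.64 ± 0.162 (limma adjusted p = 0.00980), and this call stood in the 16 alternatives run. With siSOX10_1 it was 0.50 ± 0.162 (adjusted p = 0.0359), which did not hold when siCNTL replicate 1 (adjusted p = 0.0763) or 3 (0.124) was left out, without siSOX10_1 replicate 2 (0.101) or 3 (0.0988), without batch 3 (log2 fold change 0.28, adjusted p = 0.182) and in 4 other alternatives (0.0633 to 0.0963). CEACAM16-AS1, which overlaps PVR on the opposite strand, was at 0 to 0.449 TPM in controls and 0.493 to 2.52 TPM with the SOX10 siRNAs. The sources used here do not say whether reads were assigned by strand, so reads of PVR and CEACAM16-AS1 may not be separable.

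CD276 (chromosome 15, 73683966 to 73714514, plus strand) set the 2 siRNAs apart. It was at 41.2, 40.7 and 45.1 TPM in untreated cells, at 41.1, 40.8 and 49.5 TPM with siCNTL, 80.4, 71.1 and 74.4 TPM with siSOX10_1 and 50.1, 53.4 and 56.4 TPM with siSOX10_2. The siSOX10_1 libraries lay above all others, and the siSOX10_2 libraries lay between them and the controls. CD276 rose with siSOX10_1 (log2 fold change 0.77 ± 0.118, limma adjusted p = 0.000427). Its log2 fold change with siSOX10_2 was 0.28 ± 0.118 (limma adjusted p = 0.0956, 95% interval 0.02 to 0.54), and 0.37 without siCNTL replicate 3 (adjusted p = 0.0398). The direct difference of siSOX10_2 from siSOX10_1 was -0.49 ± 0.118 (limma adjusted p = 0.0615), and it passed with the batch as a block (adjusted p = 0.0362), without batch 3 (-0.54, adjusted p = 0.0383) and with a pseudocount of 5 (0.0485). In that comparison 1.56% of all genes were called.

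HLA-E (chromosome 6, 30489509 to 30494194, plus strand), a nonclassical class I molecule, had a narrow range in controls and a wide one with the SOX10 siRNAs. In untreated cells it was at 217.1, 199 and 221 TPM, and with siCNTL at 209.4, 222 and 219 TPM. It was at 344, 324 and 247 TPM with siSOX10_1 and 310, 291 and 210.9 TPM with siSOX10_2. The batch 1 and 2 libraries of both siRNAs lay above all controls, the batch 3 library of siSOX10_1 was closer to them, and that of siSOX10_2 was among them. HLA-E rose with siSOX10_1 (log2 fold change 0.48 ± 0.148, limma adjusted p = 0.0304). The adjusted p rose above the threshold when siCNTL replicate 1 (0.0911), 2 (0.0615) or 3 (0.0560) was left out, without siSOX10_1 replicate 1 (0.118) or 2 (0.0953), with no filter on low genes (0.0785) and without trend and robust options (0.0703). With siSOX10_2 the log2 fold change was 0.30 ± 0.148 (95% interval -0.02 to 0.62, limma adjusted p = 0.157), and it was 0.47 without siSOX10_2 replicate 3 (adjusted p = 0.0205) and 0.47 without batch 3 (0.00199). HLA genes are alike in sequence, so reads may be split between HLA-E and the others.

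TNFRSF14 (chromosome 1, 2555639 to 2565382, plus strand) was the member that fell. In untreated cells it was at 179, 157 and 161 TPM, and with siCNTL at 222, 225 and 119 TPM. With siSOX10_1 it was at 63.7, 56.4 and 18.01 TPM, and with siSOX10_2 at 53.8, 48.7 and 24.3 TPM. The batch 3 library was the lowest in all 3 transfected groups, and every SOX10 siRNA library was below every control library. The means were 24.4% and 22.4% of siCNTL, and the log2 fold change was -2.14 ± 0.457 with siSOX10_1 (limma adjusted p = 0.00591) and -2.15 ± 0.457 with siSOX10_2 (limma adjusted p = 0.00522). The overlapping antisense gene TNFRSF14-AS1 was at 1.96 to 4.55 TPM in controls and 0.0490 to 2.02 TPM with the SOX10 siRNAs. Reads of TNFRSF14 and TNFRSF14-AS1 may likewise not be separable.

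CD47 (chromosome 3, 108043091 to 108091862, minus strand) did not pass with either siRNA. In untreated cells it was at 162, 166 and 135 TPM, and with siCNTL at 127, 109.9 and 102 TPM. It was at 101, 103 and 120 TPM with siSOX10_1 and 116, 128 and 74.2 TPM with siSOX10_2. The transfected groups overlapped one another, and the untreated libraries lay above every transfected one. Against siCNTL the log2 fold changes were -0.06 (95% interval -0.44 to 0.32) and -0.12 (-0.50 to 0.26), with limma adjusted p = 0.841 and 0.663. Against untreated cells they were -0.51 (limma adjusted p = 0.0465) and -0.57 (adjusted p = 0.0266). The siCNTL libraries themselves were lower than untreated cells by a log2 fold change of -0.45 (95% interval -0.84 to -0.07, unadjusted p = 0.0242), which did not pass (limma adjusted p = 1), nor did any of the 15738 genes in that comparison (0% called, 581 genes or 3.69% at an unadjusted p under 0.05).

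The PD-1 ligands were scarce in every group. CD274 (chromosome 9, 5450503 to 5470566, plus strand) was at 1.07, 1.41 and 0.273 TPM in untreated cells, at 3.27, 1.27 and 0.824 TPM with siCNTL, 1.05, 1.80 and 0.0740 TPM with siSOX10_1 and 2.58, 2.52 and 5.11 TPM with siSOX10_2. The siSOX10_2 libraries lay above those of siSOX10_1 and of untreated cells, and overlapped siCNTL. Against siCNTL the log2 fold changes were -0.51 (95% interval -1.42 to 0.40, limma adjusted p = 0.414) and 0.71 (-0.20 to 1.62, adjusted p = 0.241), and against untreated cells siSOX10_2 reached 1.2 (adjusted p = 0.0462). Between the siRNAs the difference of siSOX10_2 from siSOX10_1 was 1.21 ± 0.421 (limma adjusted p = 0.184).

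PDCD1LG2 (chromosome 9, 5510531 to 5571282, plus strand), the neighbour of CD274, was listed at 0 in 4 control libraries and at 0.0330 and 0.136 TPM in the others. It was at 0.379, 0.352 and 0.686 TPM with siSOX10_1 and 0.459, 1.44 and 1.17 TPM with siSOX10_2, all above the controls. In a fit with no filter on low genes the log2 fold change was 0.49 with siSOX10_1 (limma adjusted p = 0.170) and 0.92 with siSOX10_2 (limma adjusted p = 0.0103). A gene on the opposite strand that overlaps both, ENSG00000286162, was at 0.830 to 3.49 TPM in the 12 libraries, a level in the range of CD274, so reads of the 3 genes may not be separable. LGALS9 (chromosome 17, 27629798 to 27649560, plus strand) was listed at 0 in 5 control libraries and 0.0490 TPM in the sixth, against 1.06, 0.191 and 0.241 TPM with siSOX10_1 and 0.488, 0.376 and 0.262 TPM with siSOX10_2. With no filter it did not pass (log2 fold changes 0.53 and 0.46, limma adjusted p = 0.108 and 0.168). Its near copies LGALS9B and LGALS9C were at most 0.0360 and 0 TPM.

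**Figure D2:**
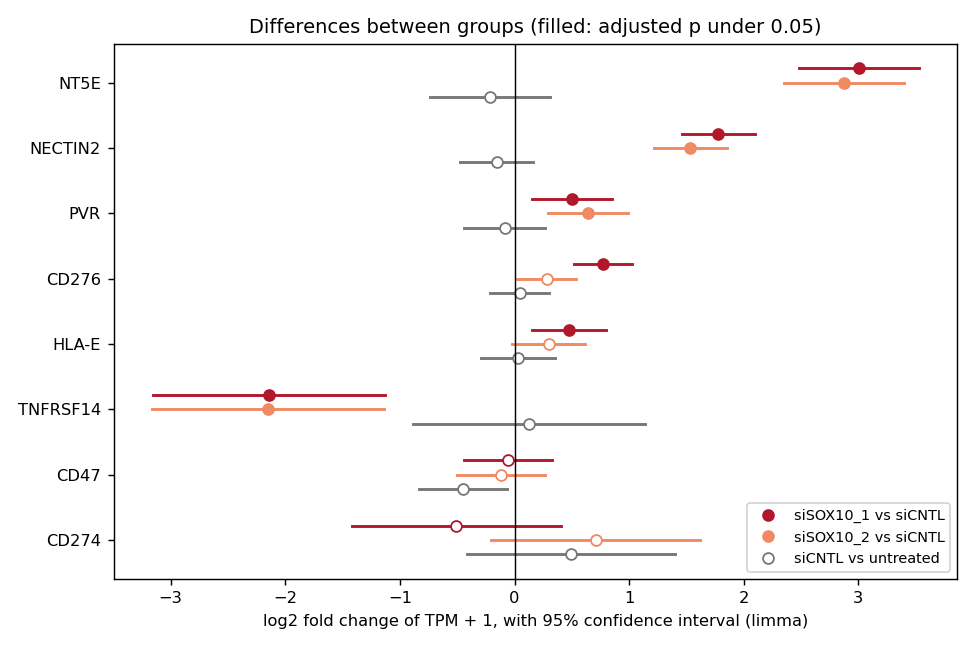
Log2 fold change of TPM + 1 (horizontal axis) with its 95% confidence interval from limma for the 8 genes tested, for each SOX10 siRNA against siCNTL and for siCNTL against untreated cells, filled where the adjusted p was under 0.05. NT5E and NECTIN2 lie near 3.01 and 1.78 with siSOX10_1, TNFRSF14 lies near -2.14, and the intervals of CD47 and CD274 against siCNTL cross 0.

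Set against the 6 controls together, the TPM of the 6 SOX10 siRNA libraries did not overlap them for NT5E, NECTIN2, PVR and CD276, which were higher, and TNFRSF14, which was lower. Among all genes tested 23.4% did not overlap, 14% higher and 9.37% lower. For 6 members, those other than CD276 and CD274, the siRNAs differed from each other by less than 2 standard errors. The difference of siSOX10_2 from siSOX10_1 was -0.13 (95% interval -0.66 to 0.39) for NT5E, -0.24 (-0.56 to 0.07) for NECTIN2, 0.14 (-0.21 to 0.49) for PVR, -0.18 (-0.50 to 0.14) for HLA-E, -0.06 (-0.44 to 0.32) for CD47 and -0.01 (-1.02 to 1.00) for TNFRSF14. None of these passed (limma adjusted p from 0.496 to 0.994), which does not show that the siRNAs act alike.

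The batches moved some members as well. In a fit with group and batch as terms, batch 3 differed from batches 1 and 2 for TNFRSF14, which was lower by a log2 fold change of -0.92 ± 0.195 (limma adjusted p = 0.0185), and for NECTIN2, which was higher by 0.30 ± 0.0738 (adjusted p = 0.0252). In that comparison 10.7% of all genes were called, 1.49% higher and 9.17% lower (234 and 1443 genes, against 758 and 733 with median-of-ratios scaling, which moved the median of all genes by 0.13). The TNFRSF14 call was lost without siSOX10_2 replicate 3 (adjusted p = 0.0902) or siCNTL replicate 3 (0.0653). This fit takes the batch difference as the same in all groups. In batches 1, 2 and 3 TNFRSF14 was at 179, 157 and 161 TPM in untreated cells, against 222, 225 and 119 TPM with siCNTL. The NECTIN2 call was lost without siSOX10_1 replicate 2 (0.0621) or 3 (0.0574), siSOX10_2 replicate 1 (0.0584) or 3 (0.0815), or siCNTL replicate 3 (0.0889). Both were lost with no filter (0.0573 and 0.0689), and NECTIN2 also without trend and robust options (0.0738).

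Within batches, the differences from siCNTL of the same batch kept 1 direction for most members. NT5E differed by 2.75, 2.55 and 3.73 on the log2(TPM + 1) scale with siSOX10_1 in batches 1, 2 and 3, and by 2.85, 2.45 and 3.32 with siSOX10_2. TNFRSF14 differed by -1.78, -1.98 and -2.66, and by -2.02, -2.18 and -2.25. NECTIN2 was within 1.46 to 1.94 in all 6, CD276 within 0.18 to 0.95 and PVR within 0.25 to 1.03. HLA-E differed by 0.71, 0.54 and 0.17 with siSOX10_1, and by 0.56, 0.38 and -0.05 with siSOX10_2. CD47 ranged from -0.45 to 0.23 and CD274 from -1.06 to 1.74, and both changed sign between batches. SOX10 itself was lowest against its control in batch 3, at -3.13 and -2.85 against -1.10 to -1.57 in the other batches. Between the SOX10 siRNA effect in batch 3 and that in batches 1 and 2 a difference was called for 2 members, HLA-E (lower) and NT5E (higher), where 4.23% of all genes were called, 3.07% lower and 1.16% higher.

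**Figure D3:**
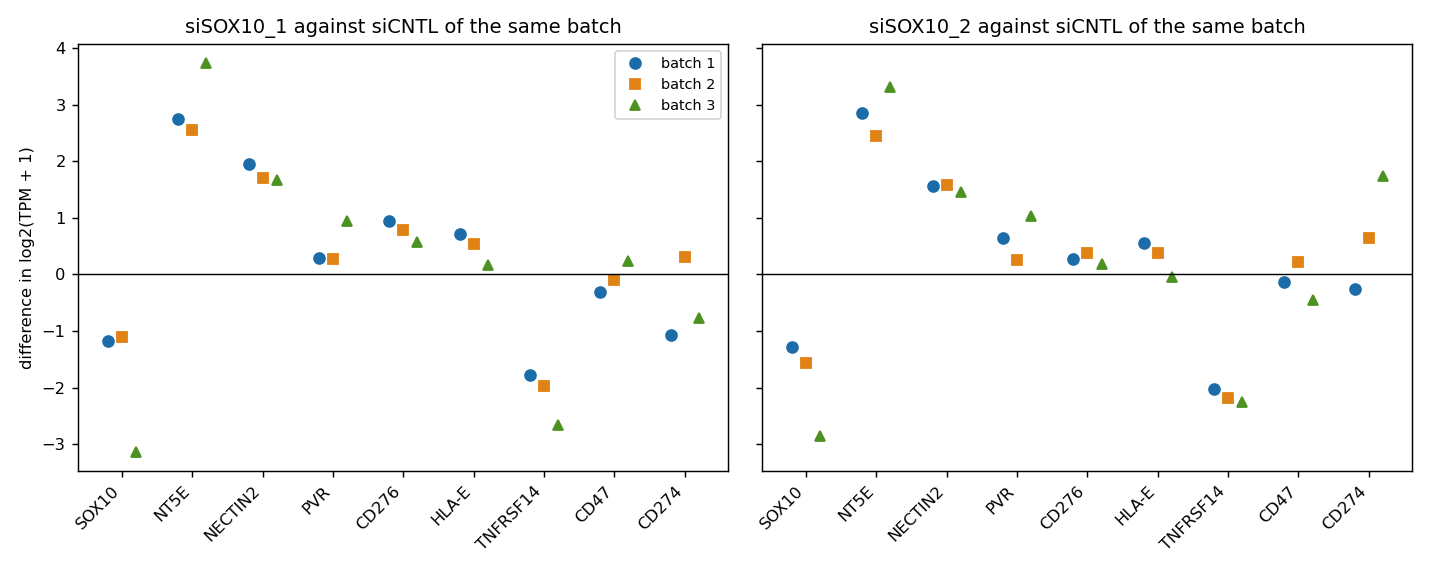
Difference in log2(TPM + 1) between each SOX10 siRNA library and the siCNTL library of the same batch, for SOX10 and the 8 genes tested, with 1 marker per batch. NT5E, NECTIN2, PVR and CD276 lie above 0 and TNFRSF14 below 0 in all 3 batches with both siRNAs, while HLA-E comes down to 0.17 and -0.05 in batch 3.

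Over the 12 libraries the members' log2(TPM + 1) values followed the groups, which is what these points share, so the correlations are a description. NT5E and NECTIN2 had a Pearson r of 0.97, and TNFRSF14 had -0.94 with NECTIN2 and -0.93 with NT5E. CD276 had 0.89 with NECTIN2, and PVR 0.88 with NT5E. CD274 stayed between -0.39 and 0.30 with every other member tested. Among 10290 genes with a mean of at least 5 TPM, those most like NT5E were APOBEC3G (r = 0.995), PRNP (0.994) and F2R (0.993), and those most like NECTIN2 were PMM1 (0.993), TFE3 (0.991) and SAA1 (0.991). TNFRSF14 was most like CDC16 (0.995), H1-9P (0.990) and ASAH1 (0.989), CD276 like TMEM167B (0.965), GNAI2 (0.965) and NCSTN (0.959), and HLA-E like IGFBP7 (0.973), SLC4A1AP (0.966) and EIF4G3 (0.964). For PVR these were ANKRD11 (0.962), PI4K2A (0.954) and ESYT2 (0.947), for CD47 ARL14EP (0.897), ERCC6L2 (0.879) and MAP3K13 (0.876), and for CD274 TMEM250 (0.894), TMEM41A (0.885) and JSRP1 (0.870).

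The genes around each ligand were taken from lists and described for the mean of both SOX10 siRNAs against siCNTL, where 33.1% of all genes were called, 20.2% higher and 12.9% lower, and the median log2 fold change of all genes was 0.08. With median-of-ratios scaling these calls went from 3185 higher and 2023 lower to 2593 and 2594. Across the lists, ADORA1, ADORA2A, CD70, HLA-G, KLRC2, RAET1G and SOCS1 would not have passed the filter without the SOX10 siRNA libraries. Such genes favour rises in the counts and medians of the lists. In the adenosine pathway 10 of 17 listed genes were tested, 5 rose and 1 fell, with a median of 0.48. ADORA1 reached 1 TPM in 3 libraries, all of siSOX10_2, and ADORA2A was at most 1.07 TPM in controls. ADORA2A, an adenosine receptor that dampens immune cells, was at 0.118 ± 0.205 TPM with siCNTL, 9.54 ± 4.33 TPM with siSOX10_1 and 14.6 ± 6.64 TPM with siSOX10_2. Its log2 fold change was 3.46 ± 0.332 (limma adjusted p = 6.93e-06). ADORA2B rose by 0.96, ENPP1, an ectoenzyme that can feed AMP to NT5E, by 0.93, ENTPD4 by 0.57 and ADA, which breaks adenosine down, by 0.39. PANX1, a channel for ATP release, fell by 0.46 on the log2 scale. ENTPD1 (CD39), which acts before NT5E on extracellular ATP, was at most 1.16 TPM and was not tested.

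Of 28 listed genes known to control CD274, 26 were tested. In the mean of both siRNAs 16 rose and none fell, with a median of 0.61. In that mean, with median-of-ratios scaling 15 rose and 1 fell, where 16.5% of all genes were called higher and 16.5% lower. Without batch 3, 15 rose and 3 fell, where 24.2% of all genes were called higher and 15.7% lower. With siSOX10_1 alone 10 rose and 1 fell (median 0.42), and with siSOX10_2 alone 15 rose and 1 fell (median 0.60). IRF1 was at 8.68, 39.3 and 5.79 TPM with siCNTL, at 64.6, 49.7 and 27.3 TPM with siSOX10_1 and at 102, 82.9 and 63.3 TPM with siSOX10_2, a log2 fold change of 2.14 ± 0.507 in the mean of both (limma adjusted p = 0.00783). With siSOX10_2 alone IRF1 rose (2.57, limma adjusted p = 0.00749), and with siSOX10_1 alone it did not pass (1.72, limma adjusted p = 0.0514). The siCNTL library of batch 2 overlapped those of siSOX10_1, and without batch 3 IRF1 did not pass (log2 fold change 1.89, adjusted p = 0.0889). The receptor chains IFNGR1 and IFNGR2 rose by 1.08 and 0.59 and JAK1 by 0.63, as did SOCS1, a feedback inhibitor of JAK signalling, by 1.48. SOCS1 was at most 0.240 TPM in controls and passed the filter only through the SOX10 siRNA libraries. CD44 (2.70) and STT3A, a subunit of the glycosylation machinery (1.09), were among the 4 with the largest change. JAK2 lies in the same region of chromosome 9 as CD274, at 4984390 to 5129948, with other genes between them. It was at 5.06 ± 1.91 TPM with siCNTL and 2.70 ± 0.701 and 3.48 ± 1.5 TPM with the SOX10 siRNAs (log2 fold change -0.57, adjusted p = 0.135). Of 8 tested genes of that region, CD274 included, MLANA, a melanosome antigen, fell (-3.33, limma adjusted p = 0.00415) and none rose. Without batch 3, 2 fell, where 15.7% of all genes were called lower.

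Around CD47, all 9 listed genes were tested, 6 rose and 2 fell, with a median of 0.71. QPCTL, the enzyme that forms the pyroglutamate on CD47 that SIRPA binds, went from 13.9 ± 2.37 TPM to 28.8 ± 4.47 and 25.6 ± 3.17 TPM (log2 fold change 0.92 ± 0.151, limma adjusted p = 0.000459). Its relative QPCT went from 1201 ± 219 TPM to 502 ± 86.4 and 435 ± 110 TPM (-1.37 ± 0.170, adjusted p = 7.20e-05). THBS1, a secreted ligand of CD47, rose by 2.71 and LRP1 by 1.18, and SLAMF7 fell by 2.19 on the log2 scale.

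For HLA-E assembly all 15 listed genes were tested, 8 rose and none fell, with a median of 0.43. The siRNAs were unlike here: 9 rose with siSOX10_1 alone (median 0.47, 15.6% of all genes higher). With siSOX10_2 alone 4 rose (median 0.20, 18.4% of all genes higher), and none fell with either. HLA-B (1.62), the trimming peptidase ERAP1 (1.53), TAPBP (0.91) and HLA-C (0.64) had the largest changes. HLA-C, which supplies a leader peptide that HLA-E presents, was at 383 ± 4.90 TPM with siCNTL, 650 ± 50.01 TPM with siSOX10_1 and 553 ± 27.6 TPM with siSOX10_2. B2M, the light chain, was at 3306 ± 225 TPM with siCNTL, 3833 ± 205 TPM with siSOX10_1 and 3112 ± 297 TPM with siSOX10_2 and was not among the genes called.

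Other ligands of T and NK cells moved in both directions. Of 30 listed, 16 were tested, 3 rose and 5 fell, with a median of 0.15. Of all genes 20.2% were called higher and 12.9% lower, so the rises were near that share. Without batch 3, 5 rose and 6 fell, where 24.2% of all genes were called higher and 15.7% lower. VSIR (VISTA) rose from 2.21 ± 0.472 TPM to 9.88 ± 2.27 and 13.8 ± 1.79 TPM (log2 fold change 1.98 ± 0.201, limma adjusted p = 1.12e-05), CD70 by 1.61 and the galectin LGALS1 by 1.43. LGALS3, another galectin, fell from 2407 ± 586 TPM to 495 ± 135 and 428 ± 116 TPM (-2.39 ± 0.225, adjusted p = 1.37e-05). CEACAM1 (-1.46), BTN2A2 (-1.0), CD200 (-0.83) and CADM1 (-0.58) also fell. Of 11 activating NK ligands and related genes 8 were tested, 4 rose and none fell, with a median of 0.65. With siSOX10_1 alone 3 rose and none fell, and with siSOX10_2 alone 3 rose and 1 fell. ULBP2, a ligand of NKG2D, rose by 1.36, CLEC2B by 1.33, VIM by 1.17 and RAET1G by 1.0 (adjusted p = 0.0478). RAET1G lost its call with median-of-ratios scaling, where 3 rose and 1 fell, against 16.5% of all genes higher and 16.5% lower. It also lost its call without batch 3, and it has near relatives with which reads may be shared.

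**Figure D4:**
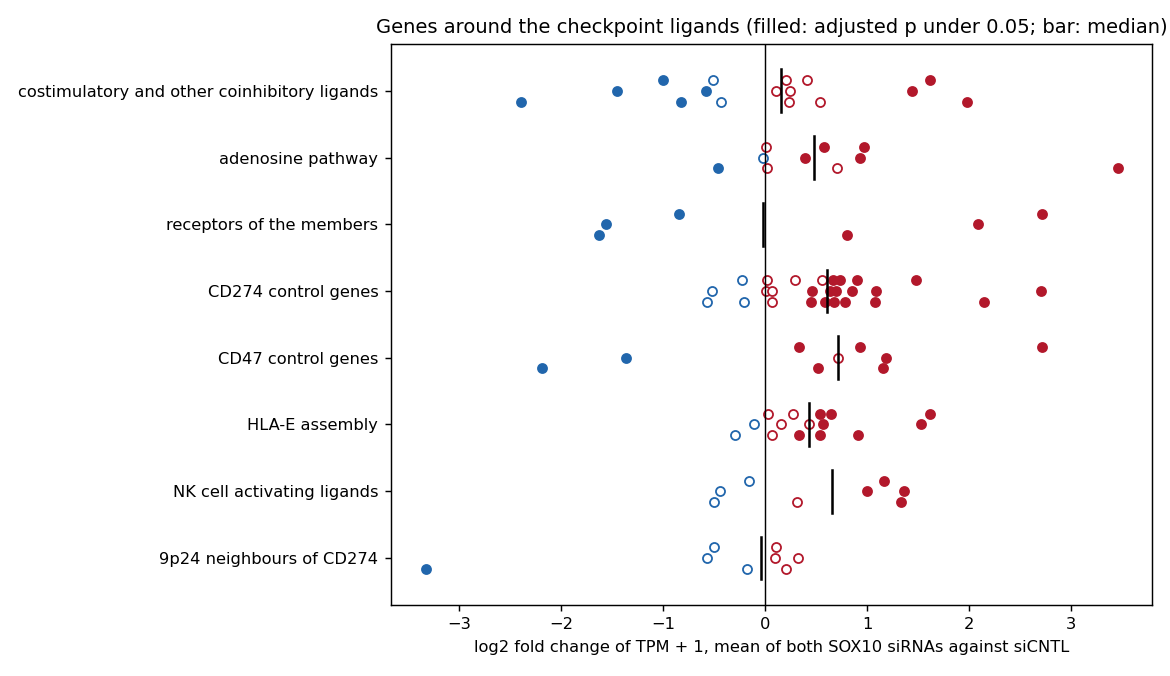
Log2 fold change of TPM + 1 in the mean of both SOX10 siRNAs against siCNTL (horizontal axis) for every tested gene of the 8 lists, red if higher and blue if lower, filled where the limma adjusted p was under 0.05, with a bar at each list's median. In this fit the lists of CD274 control genes and HLA-E assembly hold no gene that fell past the threshold, and the locus of CD274 holds no gene that rose.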

How the data were processed

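The values are TPM, deposited by the authors as 1 table that covers 61587 genes, from SMART-Seq v4 and Nextera XT libraries per the labels' protocols. Tools named in the submitters' processing notes are bcl2fastq and DRAGEN. The sources used here give no versions, annotation, build or use of strand. Of the gene identifiers, 94.8% were in GENCODE v29 and 99.9% of those overlapped the same GRCh38 place, so coordinates are given as GRCh38. TPM depend on what the most abundant genes take up, and hold no depth.

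Columns were assigned by library name and groups by title. Values were taken as log2(TPM + 1), genes that reached 1 TPM in 3 or more libraries were kept (15738), and limma 3.58.1 in R 4.3.3 was fitted to all 12 libraries with group means, trend and robust options and 8 residual degrees of freedom. A fit with batch as a second term gave the batch difference. The fits were tested on simulated data. Replicates may be technical, so the p-values cover only how these libraries varied. The labels give the replicate number as a batch, which pairs the libraries: deviations from group means had a median r of 0.179 over 18 same-batch pairs and -0.0974 over 36 others. Alternatives were the batch block, each library left out, batch 3 left out, only the compared groups, other filters, pseudocounts of 0.1 and 5, median-of-ratios scaling, no trend or robust options and untreated cells as control. The interaction with batch 3, and the lists with other scaling or without batch 3, were added after seeing the data.

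The members and lists were chosen with earlier results of these data known. Genes named from a list are up to 4 called with the largest change, those that are 5 or fewer called in a direction, and IFNGR1, IFNGR2, JAK1, JAK2, B2M, QPCTL and ENTPD1, which were chosen for their role with their values known, like the overlapping genes. ADORA1 and HLA-G are named only for how they passed the filter. Named for likeness are the 3 genes with the highest Pearson r. A few list genes that enter the counts are not reported here.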

Additional observations from a re-analysis of the deposited data

Results flagged for a closer look

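The difference between SOX10 siRNA and control libraries was not the same in all batches for 2 members, by an interaction term in a limma fit over all genes and 12 libraries that was chosen after seeing the data. For HLA-E the SOX10 siRNA effect in batch 3 minus that in batches 1 and 2 was -0.52 ± 0.112 on the log2 scale (adjusted p = 0.0229), and for NT5E it was 0.91 ± 0.223 (adjusted p = 0.0416), where 4.23% of all genes were called. SOX10 was also at its lowest in the batch 3 libraries of both siRNAs, and its part in these differences was not tested. Both calls were close to the threshold: HLA-E passed in 5 of 18 alternatives (adjusted p 0.0142 to 0.139) and NT5E in 7 of 18 (0.0198 to 0.235). Leaving out 1 library ended the HLA-E call in 10 of 12 fits and the NT5E call in 9 of 12.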

How the results depend on the processing

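The calls of NT5E, NECTIN2 and TNFRSF14 with each siRNA, of CD276 with siSOX10_1 and of PVR with siSOX10_2 stood in all 16 alternatives run for each. As a replicate block, the batch changed 1 member's call, that of CD276 between the siRNAs (adjusted p = 0.0362), and raised the genes called there from 245 to 488. That count was 403 without batch 3, 33 with only the compared groups, 123 with no filter, 138 with a pseudocount of 0.1 and 73 to 147 with 1 library left out; CD276 made the count of members 1 in place of 0 with the block, without batch 3 and with a pseudocount of 5. For siCNTL against untreated cells 34 genes were called without batch 3 and 0 otherwise. For batch 3 the 1677 genes became 498 with no filter and 490 to 2483 with 1 library left out, and the 2 members became 0 with no filter, 1 without trend and robust options, 0 to 2 with 1 library left out and 3 with median-of-ratios scaling, where CD276 passed (0.28, adjusted p = 0.0466). For the interaction with batch 3 the 666 genes became 162 with no filter, 150 without trend and robust options and 222 to 683 with 1 library left out; the 2 members became 0, 0 and 0 to 2, and 1 with median-of-ratios scaling.

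Of 937 values of single members under an alternative, 39 had the opposite sign, none of them past the threshold. With 1 library left out, CD47 ranged from -0.14 to 0.026 with siSOX10_1, -0.27 to 0.11 with siSOX10_2 and -0.17 to 0.027 in their mean, and CD274 from -0.16 to 0.46 in the mean. Between the siRNAs TNFRSF14 ranged from -0.57 to 0.34, CD47 from -0.21 to 0.17 and NT5E from -0.28 to 0.16. For siCNTL against untreated cells TNFRSF14 ranged from -0.026 to 0.43, HLA-E from -0.013 to 0.061, CD276 from -0.045 to 0.092 and PVR from -0.23 to 0.072. For batch 3 NT5E ranged from -0.013 to 0.37 and PVR from -0.082 to 0.14. For the interaction CD47 ranged from -0.46 to 0.47, CD274 from -0.37 to 1.57 and NECTIN2 from -0.13 to 0.047. Without batch 3, CD47 was at 0.044 with siSOX10_2 and 0.25 between the siRNAs, NT5E at 0.0049 between the siRNAs, PVR at 0.11 for siCNTL against untreated cells, and CD274 at -0.095 in the mean of both siRNAs (-0.066 with a pseudocount of 0.1). With median-of-ratios scaling PVR was at 0.13 for batch 3, and the interaction was 0.0099 for CD276 and 0.12 for NECTIN2. With that scaling the split of calls between the siRNAs went from 168 higher and 77 lower to 101 and 134, and that of the interaction from 183 and 483 to 359 and 267, with the median of all genes moving by 0.14. The causes were not tested. CD274 could not be tested with a filter at 5 TPM, and TPM hold no depth from which to judge the precision of low values.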

Other observations

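Transcripts of some receptors of these ligands, and of the checkpoint receptor CTLA4, known mainly from leukocytes, were measured in the melanoma cells. Of 20 listed receptors and partners 6 were tested in the mean of both SOX10 siRNAs against siCNTL, 3 rose and 3 fell, with a median log2 fold change of -0.02. In that comparison 20.2% of all genes were called higher and 12.9% lower. SIRPA, the receptor of CD47, went from 7.94 ± 1.45 TPM with siCNTL to 2.06 ± 0.591 and 2.05 ± 0.856 TPM (log2 fold change -1.57 ± 0.233, limma adjusted p = 0.000231). CD96, which binds PVR, went from 87.3 ± 8.33 to 40.1 ± 8.24 and 58.3 ± 5.15 TPM (-0.85, adjusted p = 0.000376). CTLA4 went from 10.5 ± 6.07 to 2.02 ± 0.878 and 2.97 ± 1.85 TPM (-1.63, adjusted p = 0.0129). CTLA4 was on the list and is counted among those that fell, but none of the 10 members is its ligand. KLRC2, an activating receptor for HLA-E whose reads may be shared with its near copies, went from 0.0457 ± 0.0401 to 3.65 ± 1.28 and 3.34 ± 0.606 TPM (2.08, adjusted p = 1.10e-05). It was at most 0.271 TPM in controls and passed the filter only through the SOX10 siRNA libraries, so its place among the rises was favoured by the filter. RGMB, a partner of PDCD1LG2, rose by 0.80. PDCD1, TIGIT, CD226, BTLA, HAVCR2 and CD160 were at most 0.345 TPM in any library, and PTPRC at most 0.209 TPM.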
